A study of Mus musculus with 2 samples.

Results

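The cells described here are the Lewis lung carcinoma (LLC) cancer cells with the highest summed level of *Igfbp6*, *Clu*, *Igfbp4*, *Cmbl* and *Scara5*. They number 1421 of 14210 cancer cells, 676 from the *sGC* Ctr tumors and 745 from the *sGC* ΔPC tumors. Compared with the other cancer cells of the same library, they held 2 to 4 times as much RNA of the small proteoglycans *Lum* and *Dcn*, of the microfibril gene *Fbn1*, of the matrix proteases *Mmp3* and *Mmp12*, of the chemokine *Ccl7* and of the imprinted transcript *H19*. The size of these ratios depended on *Igfbp4*: with that gene left out of the sum, 3 of the 18 genes at least 2-fold higher in both libraries stayed so, and all 18 had ratios above 0. Of the 11 that neither entered the sum nor were abundant enough to count only in the chosen cells, 1 stayed so. The same cells held less G2/M RNA, with 21 of 21 genes measured at least 2-fold lower in *sGC* Ctr and 17 in *sGC* ΔPC. Of all genes measured, 1.54% and 0.775% were lower by this measure. Both patterns were present in both libraries. The G2/M genes were lower by more in the *sGC* Ctr cells than in the *sGC* ΔPC cells, with median log2 ratios of -2.22 and -1.22, and with -1.20 and -0.88 when *Igfbp4* was left out of the sum. Ranking on cells reduced to 5000 counted RNA molecules each gave -1.45 and -0.70, with 0 genes at least 2-fold lower in *sGC* ΔPC.

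A cancer cell was a barcode with at least 5000 unique molecular identifiers (UMIs, each a count of 1 captured RNA molecule), under 10% mitochondrial UMIs, at least 1000 counts per 1000000 UMIs of the barcode (CPM) of *Rhox5*, *Krt8*, *Krt18* and *Hmga2* together, and under 300 CPM of the leukocyte genes *Tyrobp*, *Fcer1g* and *Ctss* together. The 10% of these cells with the highest CPM sum of the 5 ranking genes, taken over both libraries pooled, are called selected cells. The ranking used measured RNA levels of these same cells, so a difference between selected and other cells is a description of the choice and carries no test. LLC is a transplantable mouse lung cancer line grown under the skin of C57BL/6 mice. The *sGC* Ctr library (labelled CT) came from tumors in *Gucy1b1* flox/flox hosts, and the *sGC* ΔPC library (labelled KO) from tumors in hosts whose genotype is written Cspg4-CreER T2::Gucyc1b1 flox/flox. *Gucy1b1* encodes the β1 subunit of soluble guanylate cyclase (sGC), the receptor of nitric oxide. The Cre is driven by *Cspg4* (NG2), which is active in pericytes but also in other NG2-positive host cells, so the deletion was made in the host and not in the inoculated cancer cells. Tamoxifen, in 5 doses, was given to the hosts of either library at an age of 4 weeks. The LLC cells were placed when the hosts had reached 8 weeks, and the tumors grew for 2 weeks.

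Each library was made from the pooled cells of 3 tumors, so there was 1 library per condition. Tumors within a library cannot be told apart, genotype and library cannot be told apart, and no test between conditions was possible. Intervals given below are exact 95% intervals that cover counting error only. Levels are summed UMIs of a group of cells as CPM of all its UMIs, and differences are log2 ratios of such levels. The *sGC* Ctr library held 15007 barcodes and 487859656 UMIs, and the *sGC* ΔPC library held 25631 barcodes and 436352742 UMIs. After the cut on depth and mitochondrial share, 10848 and 15337 barcodes remained, with medians of 40255.5 and 13805 UMIs. The libraries had 131 barcode sequences in common, 18 of them among cancer cells and 1 among selected cells. The cancer cells carried almost no *Gucy1b1* RNA in either library. Its counts were 0 and 8 UMIs in the selected and other cells of *sGC* Ctr and 1 and 4 UMIs in those of *sGC* ΔPC, so that gene checks nothing about the labels here.

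IGFBP6 and IGFBP4 are secreted proteins that bind insulin-like growth factors, IGFBP6 with a preference for IGF2. Clusterin (*Clu*) is a secreted chaperone that is also part of the fluid-phase control of complement. SCARA5 is a class A scavenger receptor that can take up ferritin, and *Cmbl* encodes a cytosolic hydrolase. Small leucine-rich proteoglycans such as lumican and decorin coat collagen fibrils and are typical products of fibroblasts. On the GRCm38 build, *Igfbp6* lies at chr15:102144362-102149511, *Clu* at chr14:65968483-65981547, *Igfbp4* at chr11:99041244-99054392 and *Cmbl* at chr15:31565389-31590119, all on the plus strand, and all are protein-coding genes.

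The ranking sum showed 1 broad peak without a gap at the cut. The median of all cancer cells was 1092 CPM, the lowest selected cell had 2008.07 CPM and the highest cell left out had 2007.79 CPM. In a cell of 5000 UMIs the cut corresponds to 10.0 UMIs. Of the selected cells, 436 (30.7%) lay within 10% above the cut, and 663 cancer cells lay within 10% below it. On the 2 sides of the cut, *Lum*, which the ranking did not use, was at 389 and 372 CPM in *sGC* Ctr and at 471 and 453 CPM in *sGC* ΔPC, inside and outside respectively. The selected cells are therefore the upper range of a continuous score, and are not called a cell type.

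**Figure D1:**
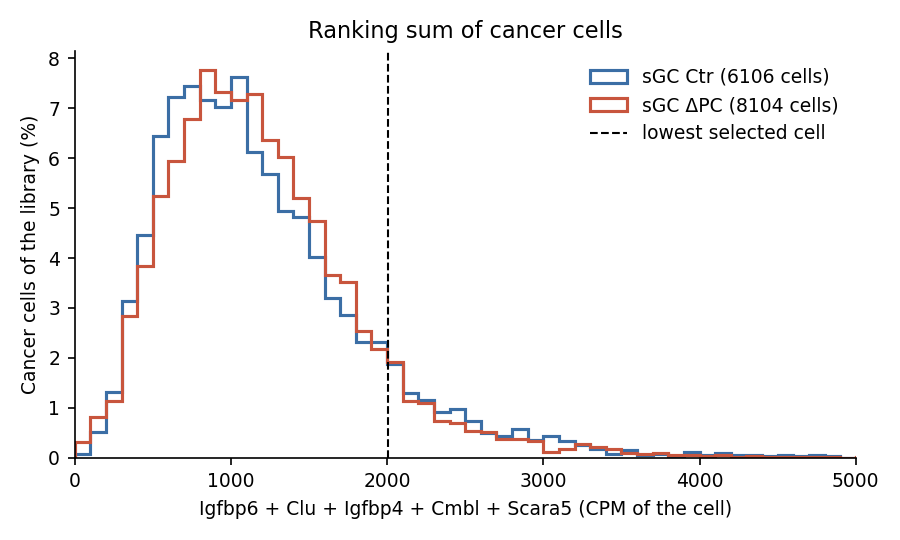
Distribution of the summed level of the 5 ranking genes (x axis, CPM of each cell, drawn to 5000) as the percentage of cancer cells of each library (y axis, steps of 100 CPM). Both libraries form 1 peak below the dashed line at 2008.07 CPM, the lowest selected cell.

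*Igfbp4* carried most of the ranking. It gave 73.8% of the ranking UMIs of selected cells in *sGC* Ctr and 73.1% in *sGC* ΔPC, and its level was 1924 against 729 CPM in *sGC* Ctr and 1854 against 756 CPM in *sGC* ΔPC, selected against other cells. *Clu* was at 323 against 139 CPM in *sGC* Ctr and at 437 against 171 CPM in *sGC* ΔPC. *Igfbp6* was at 329 against 161 CPM and at 210 against 129 CPM, in the same order of libraries. The remaining ranking genes were sparse. *Scara5* was at 17.7 against 4.03 CPM in *sGC* Ctr and at 22.9 against 5.98 CPM in *sGC* ΔPC. *Cmbl* was at 13.7 against 6.79 CPM and at 11.6 against 6.61 CPM.

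Each ranking gene was also compared between cells ranked by the other 4 genes alone, so that its own level did not enter the choice. All 5 remained higher in the cells so chosen, in both libraries. The 5 genes had been put together with earlier results of these data known, so this is a description and no independent check. *Scara5* had the largest log2 ratio, 2.04 in *sGC* Ctr and 1.71 in *sGC* ΔPC. It reached a mean of 10 CPM over the 4 groups of cells only through the selected cells, and *Cmbl* did not reach it. *Cmbl* followed with 0.97 and 0.69, then *Igfbp6* with 0.71 and 0.36, *Clu* with 0.58 and 0.31, and *Igfbp4* with 0.48 and 0.38. Leaving out *Igfbp4* changed the cells most, since 296 of the 670 cells so chosen in *sGC* Ctr and 318 of 751 in *sGC* ΔPC were also selected by all 5 genes.

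Few cells held RNA of all 5 genes. When every cell was thinned to 5000 UMIs, a *Scara5* UMI was found in 7.69% of selected cells in *sGC* Ctr (interval 5.80 to 9.97%) and in 7.25% in *sGC* ΔPC (5.49 to 9.35%). In the other cancer cells the shares were 1.92% and 2.38%. Macrophage barcodes, which should lack *Scara5* and served as the measure of free RNA, gave 0.205% and 0.391%. Without thinning, 38.3% of selected cells in *sGC* Ctr and 22.01% in *sGC* ΔPC held a *Scara5* UMI, with median depths of 48836.5 and 14347 UMIs. *Clu* was found after thinning in 61.2% of selected and 38.6% of other cells in *sGC* Ctr and in 74.2% and 47.8% in *sGC* ΔPC, against 8.05% and 10.8% of macrophages. Selected cells with a UMI of all 5 ranking genes made up 19.5% in *sGC* Ctr and 7.92% in *sGC* ΔPC at full depth, against 5.23% and 3.94% of the other cancer cells.

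Of 7223 genes with a mean level of at least 10 CPM over the 4 groups of cells, 40 (0.554%) were at least 2-fold higher in selected than in other cells in *sGC* Ctr, and 19 (0.263%) in *sGC* ΔPC. These counts include ranking genes. At least 2-fold lower were 111 genes (1.54%) in *sGC* Ctr and 56 (0.775%) in *sGC* ΔPC. In both libraries 18 genes were higher and 53 were lower by this measure, and 6122 of the 7223 genes had the same direction in both. A gene could pass this filter through its level in the selected cells alone. When the level was taken over all cancer cells, 13 of the 18 higher genes passed, and *Prg4*, *Aspn*, *Mmp19* and *Scara5* were among the 5 that did not. The genes at least 2-fold higher then numbered 34 and 13, and those lower 136 and 73. The median log2 ratio of all genes was -0.06 in *sGC* Ctr and -0.02 in *sGC* ΔPC. When cells were ranked without *Igfbp4*, the 18 genes all stayed higher in both libraries but 3 of them at least 2-fold. When cells were ranked after thinning to 5000 UMIs, 12 stayed at least 2-fold higher. Of the 11 that are not ranking genes and did not pass through the selected cells alone, 1 and 6 did. The genes at least 2-fold lower in *sGC* ΔPC then numbered 21 and 0.

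**Figure D2:**
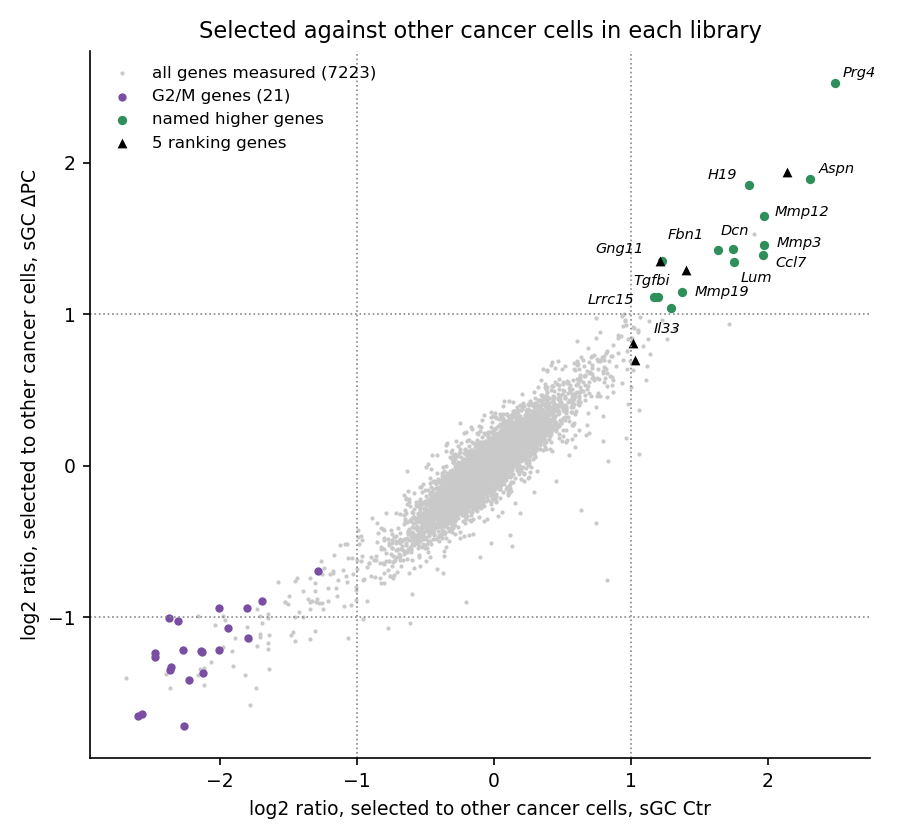
Log2 ratio of selected to other cancer cells for each gene measured, in *sGC* Ctr (x axis) and *sGC* ΔPC (y axis). Triangles mark the 5 ranking genes, green points the named higher genes and purple points the G2/M genes, which sit at the lower left with medians of -2.22 and -1.22.

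Of 11 proteoglycan genes listed, 5 passed the level filter, *Aspn* only through the selected cells. Of the other 4, 3 in *sGC* Ctr and 2 in *sGC* ΔPC were at least 2-fold higher in selected cells, against 0.554% and 0.263% of all genes. The medians of the 4 were 1.40 and 0.79 on the log2 scale. With *Aspn* the medians were 1.74 and 1.35, and these fell to 0.95 and 0.67 when *Igfbp4* was left out of the ranking. *Lum*, encoding lumican, was at 549 CPM (541 to 557) in selected and 163 CPM (162 to 164) in other cells of *sGC* Ctr, and at 562 CPM (552 to 573) and 221 CPM (219 to 223) in *sGC* ΔPC. *Dcn*, encoding decorin, was at 927 against 277 CPM and at 868 against 322 CPM. Asporin (*Aspn*) was at 22.1 against 4.46 CPM and at 19.7 against 5.29 CPM, log2 ratios of 2.31 and 1.89. *Bgn*, encoding biglycan, had a log2 ratio of 1.06 (0.94 to 1.18) in *sGC* Ctr and 0.08 (-0.08 to 0.24) in *sGC* ΔPC, where the interval includes 0. *Ogn*, encoding osteoglycin, was at 16.3 against 13.2 CPM and at 10.0 against 8.48 CPM.

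*Lum* and *Dcn* differed along the ranking sum and not at the cut alone. Over 10 groups of cells ordered by the ranking sum, equal in size over both libraries together, *Lum* went from 52.9 CPM in the lowest group to 549 CPM in the highest in *sGC* Ctr and from 75.8 to 562 CPM in *sGC* ΔPC. *Dcn* went from 117 to 927 CPM and from 130 to 868 CPM. The summed G2/M genes went the other way, from 2066 to 326 CPM and from 1937 to 625 CPM.

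**Figure D3:**
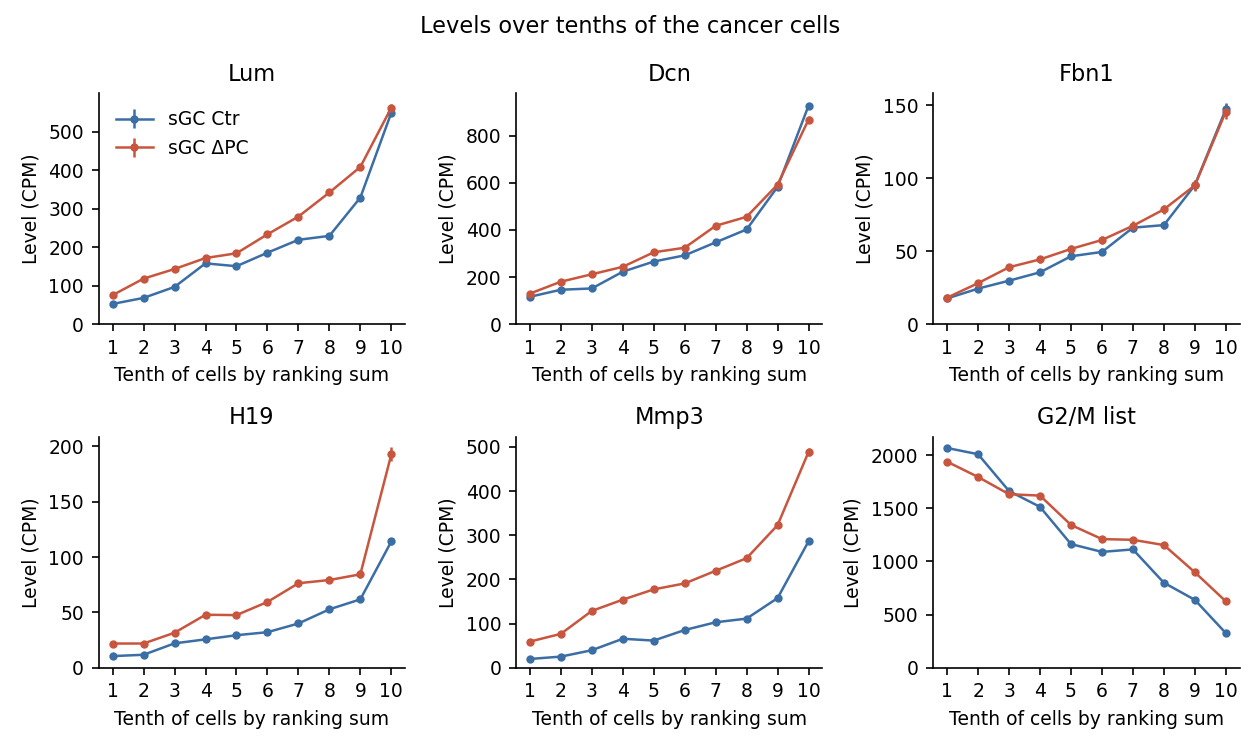
Level (y axis, CPM, from 0) in 10 groups of cancer cells ordered by the ranking sum (x axis, group 10 being the selected cells) in *sGC* Ctr (blue) and *sGC* ΔPC (red), with exact 95% counting intervals. *Lum*, *Dcn*, *Fbn1*, *H19* and *Mmp3* were highest and the 22 G2/M genes summed were lowest in group 10 of both libraries.

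Among collagen and matrix genes, 14 of 25 listed passed the filter. Of these, 13 in *sGC* Ctr and 11 in *sGC* ΔPC were higher in selected cells, as were 39.6% and 45.9% of all genes. At least 2-fold higher were 3 and 1 of the 14, against 0.554% and 0.263% of all genes. The median log2 ratios of the 14 were 0.78 and 0.64. *Fbn1*, encoding the microfibril protein fibrillin-1, was at 147 against 47.4 CPM in *sGC* Ctr and at 146 against 54.2 CPM in *sGC* ΔPC. *Col3a1*, the most abundant of the list, was at 1568 against 776 CPM and at 1675 against 888 CPM. *Fn1* (fibronectin) had log2 ratios of 0.76 and 0.69, and *Col6a3* of 1.23 and 0.96. *Col8a1* was lower, by 0.62 and 0.24 on the log2 scale. *Tgfbi*, a matrix protein induced by TGF-beta, was at 99.5 against 43.3 CPM and at 112 against 51.7 CPM. *Prg4*, encoding lubricin, had log2 ratios of 2.49 (2.32 to 2.64) and 2.53 (2.36 to 2.69), at levels of 14.6 against 2.61 CPM and 21.3 against 3.69 CPM. Its RNA came from few cells: 111 of 676 selected cells in *sGC* Ctr and 81 of 745 in *sGC* ΔPC held a *Prg4* UMI, and the 1% of selected cells with most of it carried 41.5% and 62.1% of its UMIs. Its ratios fell to 0.47 and 0.28 when *Igfbp4* was left out of the ranking, and to 0.39 in *sGC* Ctr with the cancer gate at 2000 CPM.

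Because these are also fibroblast genes, fibroblast markers are given beside them. The 8 fibroblast markers (*Pdgfra*, *Dpt*, *Pi16*, *Col1a1*, *Col1a2*, *Col3a1*, *Pdpn* and *Dcn*) summed to 2739 CPM in selected and 1184 CPM in other cells of *sGC* Ctr, and to 2755 and 1388 CPM in *sGC* ΔPC, with *Col3a1* the most abundant. Fibroblast barcodes of the same libraries, 108 and 70 in number, had sums of 53586 and 50404 CPM. In those fibroblasts *Col1a2* was at 12731 and 11336 CPM, above *Dcn* at 5312 and 5957 CPM. In selected cells of *sGC* Ctr *Dcn* exceeded its level in other cancer cells by 650 CPM and *Col1a2* by 18.2 CPM. In *sGC* ΔPC *Dcn* exceeded it by 545 CPM and *Col1a2* was lower by 16.4 CPM. A UMI of *Pdgfra*, *Dpt* or *Pi16* was found in 94.8% of selected and 85.3% of other cells in *sGC* Ctr and in 76.8% and 67.4% in *sGC* ΔPC. When cells with at least 100 CPM of *Col1a1* and *Col1a2* were left out, the 18 genes higher in both libraries all stayed at least 2-fold higher, and when cells with a UMI of *Pdgfra*, *Dpt* or *Pi16* were left out 14 of them did. Of the 11 that are not ranking genes and did not pass the filter through the selected cells alone, 11 and 8 did.

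*Col1a1* and *Col1a2* themselves, the chains of type I collagen, had opposite directions in the 2 libraries. *Col1a2* was at 41.7 against 23.6 CPM in *sGC* Ctr, a log2 ratio of 0.83, and at 23.9 against 40.4 CPM in *sGC* ΔPC, a log2 ratio of -0.75. *Col1a1* had log2 ratios of 0.75 and -0.38. For the top 5% of cells *Col1a2* was lower in both libraries, with -2.40 and -0.14. *Col1a1* there had -0.73 and 0.28, the reverse of its directions above. Few cells held most of this RNA: 7 of 676 selected cells in *sGC* Ctr held 89.8% of the *Col1a2* UMIs, and 8 of 745 in *sGC* ΔPC held 64.6%. For *Lum* the same shares were 6.68% and 9.16%.

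Among matrix proteases and their inhibitors few genes passed 2-fold. Of 18 listed genes 10 passed the filter, *Mmp19* only through the selected cells. The median log2 ratio of the other 9 was 0.62 in *sGC* Ctr and 0.60 in *sGC* ΔPC. *Mmp3* was the 1 gene of the 9 at least 2-fold higher, against 0.554% and 0.263% of all genes. *Mmp3* (stromelysin-1) was at 286 against 73.2 CPM in *sGC* Ctr and at 489 against 178 CPM in *sGC* ΔPC. The 1% of selected cells with most *Mmp3* carried 24.5% and 23.7% of its UMIs, against 30.9% and 24.0% for the other cells. *Mmp19* was at 18.8 against 7.26 CPM and at 19.4 against 8.75 CPM. *Mmp14*, the membrane-bound collagenase, had log2 ratios of 0.66 and 0.60, and the inhibitor *Timp2* of 0.63 and 0.57. *Mmp12*, an elastase best known from macrophages, was at 44.4 against 11.3 CPM and at 67.8 against 21.6 CPM. This gene was not in the list. Macrophage barcodes held 149 and 238 CPM of it. *Lyz2*, the most abundant macrophage marker, was at 68.2 against 81.4 CPM and 181 against 201 CPM. The 8 macrophage markers summed to 127 against 144 CPM and to 289 against 313 CPM. The part of macrophage RNA in the *Mmp12* ratios was not tested.

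Among chemokines and cytokines, 10 of 20 listed genes passed the filter, with median log2 ratios of 0.51 and 0.26. In each library 2 were at least 2-fold higher, against 0.554% and 0.263% of all genes. *Ccl7*, which attracts monocytes, was at 243 against 62.4 CPM in *sGC* Ctr and at 237 against 90.3 CPM in *sGC* ΔPC. The related *Ccl2* was more abundant and less different, at 723 against 442 CPM and at 983 against 596 CPM. *Il33*, an alarmin of the interleukin-1 family, was at 131 against 53.7 CPM and at 181 against 88.2 CPM. *Spp1* (osteopontin) was the most abundant of the list, at 3307 against 1768 CPM and at 3516 against 2098 CPM. *Cxcl2* and *Csf1* were lower, with log2 ratios of -0.26 and -0.37 in *sGC* Ctr and -0.31 and -0.28 in *sGC* ΔPC. Of the complement genes, 4 of 12 passed the filter, 2 of them only through the selected cells. *C1s1*, encoding the protease C1s, had log2 ratios of 1.11 and 0.56.

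Genes related to the ranking genes by function were compared next. The 16 genes of the IGF axis other than the ranking genes gave no common direction, with 6 above the filter, none at least 2-fold different, and medians of -0.05 and -0.02. *Igf2r*, the receptor that clears IGF2, had log2 ratios of 0.38 and 0.40, and *Igf1r*, the signaling receptor, of -0.21 and -0.18. Iron handling genes, 12 of 15 above the filter, had medians of -0.00 and 0.08. The ferritin heavy chain *Fth1* was at 3590 against 3404 CPM and at 3621 against 3436 CPM, and the transferrin receptor *Tfrc* was lower, at 26.4 against 46.3 CPM and at 44.9 against 60.1 CPM. The other class A scavenger receptors that passed, *Colec12* and *Scara3*, had log2 ratios of 0.81 and 0.43 in *sGC* Ctr and 0.70 and 0.53 in *sGC* ΔPC. Of 17 lysosome genes none was at 2-fold. Their ratios were above 0 for 17 in *sGC* Ctr and 16 in *sGC* ΔPC, as for 39.6% and 45.9% of all genes. Their medians were 0.48 and 0.38. The cathepsin *Ctsl* was the most abundant of them, at 1936 against 1194 CPM and at 2058 against 1347 CPM.

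*H19*, a maternally expressed imprinted RNA, stood apart from the other 8 oncofetal and imprinted genes that passed the filter. It was at 114 CPM (111 to 118) against 31.3 CPM (30.7 to 32.0) in *sGC* Ctr and at 193 CPM (187 to 199) against 53.4 CPM (52.5 to 54.3) in *sGC* ΔPC, log2 ratios of 1.86 and 1.85. After thinning, an *H19* UMI was found in 20.3% of selected and 8.64% of other cells in *sGC* Ctr and in 28.3% and 14.9% in *sGC* ΔPC, against 4.23% and 7.83% of macrophages. At full depth 295 of 676 and 374 of 745 selected cells held one. The 1% of selected cells with most *H19* carried 15.7% and 24.5% of its UMIs, against 28.0% and 31.5% for the other cells. *Peg3*, expressed from the paternal copy, had log2 ratios of 0.61 and 0.54, and *Kcnq1ot1* of -0.54 and -0.37. *Igf2*, the imprinted neighbor of *H19* and the preferred ligand of IGFBP6, was under the level filter and was picked after its values were seen. It was at 5.62 against 0.62 CPM in *sGC* Ctr (200 and 200 UMIs) and at 5.34 against 1.40 CPM in *sGC* ΔPC (106 and 362 UMIs).

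Other genes named as higher were *Gng11*, a G protein gamma subunit, at 59.3 against 25.4 CPM and at 74.7 against 29.3 CPM, and *Lrrc15*, a membrane protein known from activated fibroblasts, at 30.8 against 13.7 CPM and at 23.8 against 11.01 CPM.

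Mitosis genes were the lowest group. Of 22 G2/M genes, 21 passed the filter and all 21 were lower in the selected cells of both libraries. At least 2-fold lower were 21 in *sGC* Ctr and 17 in *sGC* ΔPC, against 1.54% and 0.775% of all genes. The median log2 ratios were -2.22 and -1.22. When cells were ranked after thinning to 5000 UMIs, these medians were -1.45 and -0.70, and 0 genes were at least 2-fold lower in *sGC* ΔPC. The summed level of the G2/M genes in the main ranking was 326 CPM in selected and 1353 CPM in other cells of *sGC* Ctr. In *sGC* ΔPC it was 625 and 1407 CPM. *Mki67*, the proliferation marker Ki-67, was at 20.4 CPM (18.95 to 21.95) against 97.6 CPM (96.5 to 98.7) in *sGC* Ctr and at 30.7 CPM (28.3 to 33.2) against 101 CPM (99.5 to 102) in *sGC* ΔPC. After thinning, a *Mki67* UMI was found in 7.10% of selected and 21.95% of other cells in *sGC* Ctr and in 12.3% and 25.02% in *sGC* ΔPC. Macrophages gave 15.8% and 11.9%. Single macrophage barcodes held up to 70 and 67 G2/M UMIs after thinning, so they do not measure free RNA for this gene. *Top2a*, the topoisomerase of dividing cells, was at 70.9 against 246 CPM and at 119 against 262 CPM.

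All 10 of the genes named as lowest, *Mki67* among them, encode proteins of dividing cells or histones. *Cenpe*, a kinetochore motor, had log2 ratios of -2.59 and -1.65, *Hmmr*, a spindle protein, of -2.57 and -1.64, and *Aspm*, a spindle pole protein, of -2.68 and -1.40. The spindle assembly factor *Tpx2* had -2.22 and -1.41, the kinetochore scaffold *Knl1* had -2.36 and -1.47, the kinesin *Kif20b* had -1.74 and -1.47, and the condensin subunit *Ncapg* had -1.78 and -1.57. The histone genes *Hist1h3c* and *Hist2h2ac* had -2.56 and -2.11 in *sGC* Ctr and -1.64 and -1.45 in *sGC* ΔPC. S phase genes differed less, 19 of 22 above the filter, with medians of -0.55 and -0.48. *Pcna*, the replication clamp, was at 65.1 against 93.8 CPM and at 77.3 against 105 CPM. The ribonucleotide reductase subunit *Rrm1* was at 20.5 against 48.3 CPM and at 32.9 against 52.3 CPM.

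The proteoglycan genes were then compared within cells low in mitosis RNA. There were 3836 cancer cells with 0 UMIs of the 22 G2/M genes after thinning. Among them the same top share was taken anew by the same ranking, which gave 384 cells. This is not the number of main selected cells without G2/M UMIs. The 676 main selected cells of *sGC* Ctr had a median of 0 such UMIs, but 243 of the 384 came from that library. Some main selected cells were therefore among the other cells in this comparison. With *Aspn*, which passed the filter only through the selected cells, the proteoglycan medians there were 1.48 in *sGC* Ctr and 1.27 in *sGC* ΔPC. The medians with *Aspn* over all cancer cells were 1.74 and 1.35. Of the 11 genes given above, 9 stayed at least 2-fold higher.

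Most other groups of genes differed little between selected and other cells. Of 17 immediate early genes, 2 in *sGC* Ctr and 0 in *sGC* ΔPC were at least 2-fold higher, against 0.554% and 0.263% of all genes. In each library 14 of the 17 had a ratio above 0, with medians of 0.37 and 0.17, as did 39.6% and 45.9% of all genes. *Egr1* was at 67.9 against 32.6 CPM in *sGC* Ctr and at 61.3 against 47.5 CPM in *sGC* ΔPC, and *Myc* was lower, with log2 ratios of -0.64 and -0.52. Hypoxia and glycolysis genes, 19 of 22 above the filter, had medians of -0.16 and -0.09, with *Adm*, the peptide adrenomedullin, at -0.61 and -0.57. Lipid metabolism genes had medians of -0.30 and -0.22. The p53 target and cell cycle inhibitor *Cdkn1a* was not higher, at 246 against 316 CPM and at 255 against 314 CPM, while the inhibitor *Cdkn2c* had log2 ratios of 0.81 and 0.58, in a list with medians of -0.22 and -0.04. Mesenchymal genes had medians of 0.04 and 0.05, with vimentin (*Vim*) at 3803 against 3739 CPM and at 3777 against 3828 CPM. Of 16 epithelial genes only *Tjp1* passed the filter, with log2 ratios of -0.53 and -0.44. The cancer cell genes of the gate were close to the other cells, with medians of -0.10 and -0.16, and *Krt18* was the lowest of them at -0.37 and -0.60.

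Among signaling lists, TGF-beta and BMP genes had medians of 0.28 and 0.18, WNT genes of 0.07 and 0.14, retinoid genes of 0.28 and 0.19 and angiogenic factors of 0.06 and -0.04. Without *Ccn4*, *Dhrs3* and *Sema3c*, which passed only through the selected cells, the WNT medians were 0.05 and 0.10, the retinoid medians 0.22 and 0.15 and the angiogenic medians -0.07 and -0.06. *Dkk2*, a secreted modulator of WNT signaling, was at 295 against 192 CPM and at 285 against 203 CPM, and *Vegfd*, a lymphangiogenic growth factor, had log2 ratios of 0.84 and 0.69. Interferon-stimulated genes had medians of 0.29 and 0.17, basement membrane genes of 0.20 and 0.25, MHC class I genes of -0.00 and 0.03, metallothionein and oxidative stress genes of -0.05 and 0.04, ER stress genes of 0.06 and 0.06, and heat shock genes of 0.11 and -0.06. Of 13 genes of NO and cGMP signaling, the pathway of the gene deleted in the hosts, only *Prkg2*, a cGMP-dependent kinase, passed the filter, at 77.6 against 131 CPM and at 83.8 against 139 CPM. The 6 genes listed for RNA quality had medians of 0.03 in each library.

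**Figure D4:**
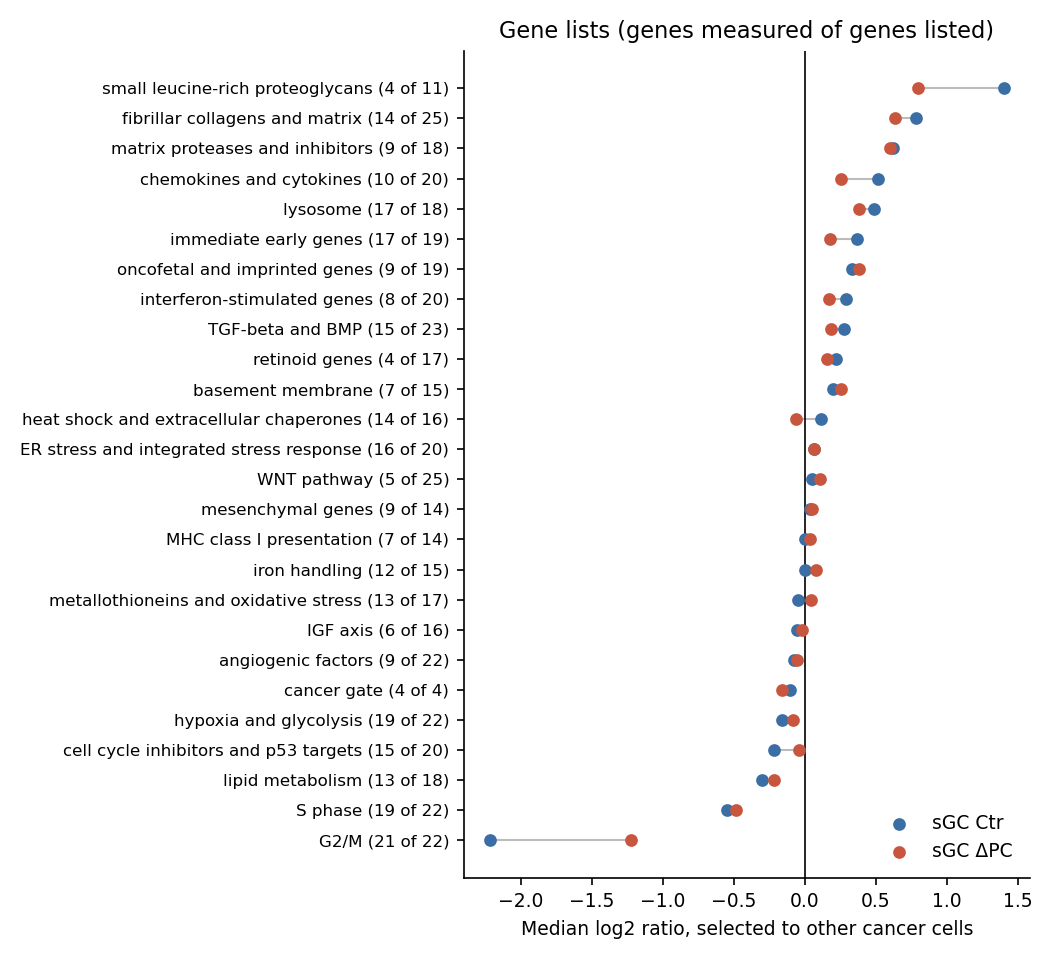
Median log2 ratio of selected to other cancer cells (x axis) for each functional gene list with at least 4 genes at 10 CPM or more over all cancer cells (y axis, such genes of listed) in *sGC* Ctr (blue) and *sGC* ΔPC (red). Proteoglycans (*Aspn* not included) were highest of the lists drawn, at 1.40 and 0.79, and G2/M genes lowest at -2.22 and -1.22.

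The remaining marker lists were at low levels. Pericyte markers summed to 11.9 against 6.27 CPM in *sGC* Ctr and to 15.8 against 9.33 CPM in *sGC* ΔPC, with *Pdgfrb* the most abundant. Endothelial markers summed to 45.8 against 37.2 CPM and to 46.3 against 45.1 CPM, mainly *Egfl7*. Granulocyte markers, mainly *S100a9*, summed to 21.2 against 23.3 CPM and to 31.0 against 46.6 CPM. T and NK cell markers, mainly *Trbc2*, summed to 0.22 against 0.83 CPM and to 1.31 against 2.55 CPM, with *Cd3e* at 0 in the selected cells. Hemoglobin genes, mainly *Hbb-bs*, summed to 3.01 against 13.3 CPM and to 0.81 against 0.73 CPM. The Scrublet score, which rates how much a barcode resembles 2 cells joined, placed 1.18% of selected and 1.66% of other cells of *sGC* Ctr among the 5% highest, and 1.74% and 3.10% in *sGC* ΔPC. Scrublet marked 0% of *sGC* ΔPC barcodes as doublets, so it did not work there and its shares cannot tell how many doublets were selected.

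Selected cells were a smaller share of cancer cells in *sGC* ΔPC than in *sGC* Ctr. The shares were 11.1% (exact binomial interval 10.3 to 11.9%) in *sGC* Ctr and 9.19% (8.57 to 9.84%) in *sGC* ΔPC, a ratio of 0.830 (0.747 to 0.923). With 1 library per condition, the spread between tumors is unknown. Depth moved with this share. Selected cells had medians of 48836.5 UMIs in *sGC* Ctr and 14347 in *sGC* ΔPC, against 53301.5 and 22010 in the other cancer cells. Among cells of 5000 to 10000 UMIs the selected share was 12.8% in *sGC* Ctr, from 47 cells, and 12.0% in *sGC* ΔPC. At 10000 to 20000 UMIs it was 14.7% and 10.6%, and at 20000 to 40000 UMIs 14.0% and 8.36%. Among cells of at least 40000 UMIs it was 10.1% and 6.62%. Over the alternatives that chose the cells anew, the ratio ranged from 0.684 to 1.80. It was 0.684 when a new top 10% was taken among cells of 40000 UMIs or more (11.4% and 7.77%). The ratio was 0.747 for the top 5%, 0.918 when cells were ranked after thinning (12.4% and 11.4%), 0.954 for the top 20% and 0.985 when *Igfbp6* was left out of the ranking. It was 1.80 when cells with a UMI of *Pdgfra*, *Dpt* or *Pi16* were left out. That step kept 3408 cancer cells over both libraries, 835 of them in *sGC* Ctr, where 52 were selected.

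Between the libraries, the genes higher in the selected cells of *sGC* ΔPC included leukocyte genes, genes that overlap ribosomal RNA sequence, and mitosis genes. The 8 macrophage markers had a log2 ratio of their sum of 1.19 in selected and 1.12 in other cells. Of 21 G2/M genes, 9 were at least 2-fold higher in *sGC* ΔPC in selected cells and 0 in the other cancer cells. At least 2-fold higher in *sGC* ΔPC were 34 genes (0.471%) and at least 2-fold lower were 2 (0.0277%), *Cx3cr1* and *Hspb1*. In the other cancer cells 20 genes were higher and 0 lower by this measure, and 16 genes were in both sets of higher genes. Of the 34, 13 were at least 2-fold lower in selected than in other cells of *sGC* Ctr. The median log2 ratio of all genes between libraries was 0.03 in selected and -0.01 in other cells.

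The 10 highest genes were mostly shared with the other cancer cells. *Cd74*, the invariant chain of MHC class II, was at 40.8 against 11.1 CPM in selected cells, *sGC* ΔPC against *sGC* Ctr, a log2 ratio of 1.88, and had 1.70 in other cancer cells. *H2-Aa* had 1.78 and 1.5, *H2-Ab1* had 1.66 and 1.26, *Cd52*, a leukocyte surface protein, had 1.74 and 1.30, and *Srgn*, the granule proteoglycan serglycin, had 1.47 and 1.41. The 4 antigen-presentation markers summed to 89.2 CPM in selected and 86.2 CPM in other cells of *sGC* ΔPC, and to 25.6 and 29.9 CPM in *sGC* Ctr. The macrophage markers summed to 289 CPM in the selected cells of *sGC* ΔPC and 127 CPM in those of *sGC* Ctr. The part of such RNA in these ratios was not tested. *Gm42418* and *AY036118*, which overlap ribosomal RNA sequence, had 1.80 and 1.92 in selected cells and 1.57 and 1.5 in other cells, and *Lars2*, a mitochondrial leucyl-tRNA synthetase, had 1.83 and 1.62. *Rpgrip1* had 1.81 and 1.33, and the zinc transporter *Slc39a1* had 1.52 and 1.33.

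The G2/M list had a median log2 ratio, *sGC* ΔPC to *sGC* Ctr, of 0.94 in selected and 0.08 in other cells. In selected cells all 21 genes had a ratio above 0, as did 58.2% of all genes measured. *Ube2c*, a ubiquitin-conjugating enzyme of mitotic exit, was at 86.8 CPM in *sGC* ΔPC and 32.0 CPM in *sGC* Ctr among selected cells, and at 174 and 165 CPM among other cells. *Cdk1* had log2 ratios of 0.73 in selected and 0.14 in other cells, and *Mki67* of 0.59 and 0.05. The difference between selected and other cells was not tested. At 40000 UMIs or more, the G2/M medians of selected to other cells were -2.18 in *sGC* Ctr and -1.36 in *sGC* ΔPC, and the median between libraries in selected cells was 0.76. That median was 0.41 when *Igfbp4* was left out of the ranking and 0.56 when *Clu* was, and 1.74 without cells holding a UMI of *Pdgfra*, *Dpt* or *Pi16*.

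**Figure D5:**
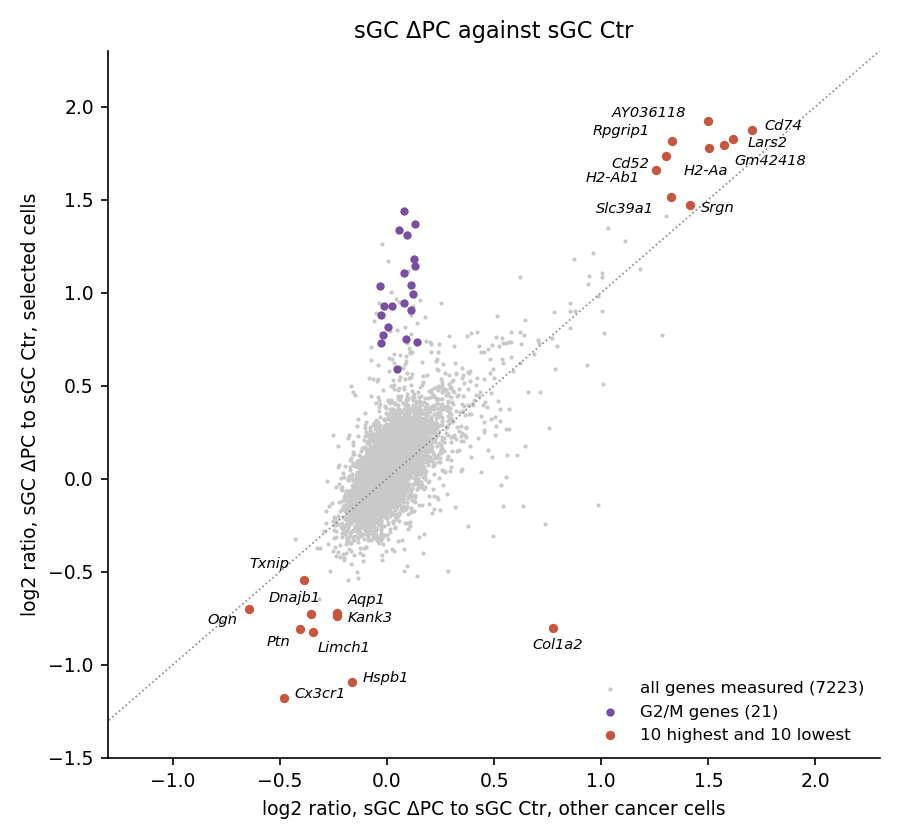
Log2 ratio of *sGC* ΔPC to *sGC* Ctr for each gene measured, in other cancer cells (x axis) and selected cells (y axis), with the diagonal dotted. The 10 highest genes lie near the diagonal, the G2/M genes (purple) lie above it with a median of 0.94 in selected and 0.08 in other cells, and *Col1a2* lies at -0.80 and 0.78.

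The 10 lowest genes did not count *Igfbp6*, a ranking gene at -0.65 in selected cells. Among the 10, *Cx3cr1*, the fractalkine receptor, was at 11.5 CPM in *sGC* ΔPC and 26 CPM in *sGC* Ctr among selected cells. Its log2 ratio was -1.18 in selected and -0.48 in other cells. The small heat shock protein *Hspb1* was at 20.2 and 43.1 CPM, with -1.09 in selected and -0.16 in other cells. *Ptn*, the growth factor pleiotrophin, had -0.81 and -0.41, the cochaperone *Dnajb1* had -0.73 and -0.36, *Ogn* had -0.70 and -0.64, the water channel *Aqp1* had -0.72 and -0.23, and *Txnip*, a thioredoxin inhibitor, had -0.55 and -0.39. *Limch1* had -0.82 and -0.34 and *Kank3* had -0.74 and -0.23. *Col1a2* had -0.80 in selected and 0.78 in other cells, and rested on few cells as given above. Its direction in selected cells turned with the setting, from -1.81 to 3.10, with 2.83 for the top 5%. So did the directions of *Cx3cr1*, from -1.81 to 1.64, *Limch1*, from -1.37 to 0.31, and *Ogn*, from -0.95 to 0.22.

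The ranking genes did not move together between the libraries. *Igfbp6* was lower in *sGC* ΔPC, by 0.65 on the log2 scale in selected and 0.32 in other cells, *Clu* was higher by 0.44 and 0.30, *Scara5* by 0.37 and 0.57, and *Igfbp4* had -0.05 and 0.05. Over the alternatives the ratio in selected cells ran from -0.49 to 0.64 for *Scara5* and from -0.04 to 0.69 for *Clu*. The matrix genes *Lum*, *Dcn* and *Fbn1* and the chemokine *Ccl7* were near equal in the selected cells of both libraries, with 0.03, -0.10, -0.02 and -0.03. In the other cancer cells the same genes had 0.44, 0.22, 0.19 and 0.53, so their smaller ratio of selected to other cells in *sGC* ΔPC came with a higher level in the other cells. *Mmp3* was higher in *sGC* ΔPC in both, by 0.77 in selected and 1.29 in other cells, and *H19* by 0.76 and 0.77.

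The selected cells were compared with the 10% of the same cancer cells that were highest in *Prg4*, *Aspn* and *Ptn* together. In *sGC* Ctr 219 cells were in both, 32.4% of the selected cells and 26.6% of the 823 *Prg4*-ranked cells, which made up 13.5% of cancer cells there. In *sGC* ΔPC 120 were in both, 16.1% of the selected cells and 20.1% of the 598 *Prg4*-ranked cells, which made up 7.38%. Cells in only the first set had more *Mmp3* and *Ccl7*, which neither ranking used, than cells in only the second, with log2 ratios of 1.62 and 2.01 in *sGC* Ctr and 1.12 and 1.25 in *sGC* ΔPC. *Clu*, which the first ranking used, had 1.36 and 1.49, and *Ptn*, which the second used, had -2.80 and -2.88. *Prg4*, also used by the second, was at 5.41 and 5.67 CPM in the cells of the first set alone. *Mki67* was also lower in them, at 22.7 against 94.5 CPM in *sGC* Ctr and at 34.0 against 108 CPM in *sGC* ΔPC, with log2 ratios of -2.06 and -1.67. *Lum* was higher in them by 1.05 and 0.64.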

How the data were processed

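RNA of dissociated LLC tumors was measured by droplet single-cell sequencing (10x Genomics 3' kit, version 3) in 2 libraries. The authors deposited raw UMI counts per gene and barcode, made with Cell Ranger 6.1.1 on mm10 per the submitters' processing notes. The quality filters, integration and clusters of the study are not in these matrices, and no per-cell annotation was used here. Barcodes were filtered as described in the report. Counts were summed per library and group of cells with Python 3.11.15, scipy 1.17.1 and scanpy 1.11.5, and genes with a mean of at least 10 CPM over the 4 groups were compared. Shares have Clopper-Pearson intervals and ratios exact conditional intervals, with 0.5 UMI added where a count was 0. Cells are not replicates, so no p-value was computed, and a change counted as called at 2-fold. For shares of cells with a UMI, all cells were thinned to 5000 UMIs, which left out none. Reference fibroblasts had at least 5000 CPM of *Col1a1*, *Col1a2* and *Col3a1* with under 300 CPM of both gate sums, and reference macrophages at least 3000 CPM of the immune gate genes with under 300 CPM of the cancer gate genes. Scrublet marked 4.32% of *sGC* Ctr barcodes (469) and 0% of *sGC* ΔPC barcodes, so it did not work in the latter, and no barcode was removed as a doublet in the main values. Named genes were the ranking genes and *Lum*, and the 15 highest and 10 lowest by the smaller ratio of both libraries (gate genes left out). They also were the 10 highest and 10 lowest between libraries (*Igfbp6*, a ranking gene, not counted), and list members needed to describe a list. Of these, 1 gene is not reported here. Gene positions came from GENCODE vM21. The members, lists and alternatives were chosen with earlier results of these data known. The scripts for the ratios and intervals were tested on simulated data. In all, 21 planned and 6 later alternatives were tried.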

Additional observations from a re-analysis of the deposited data

Results flagged for a closer look

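*Col1a1* and *Col1a2*, the genes of type I collagen, moved in opposite directions in the libraries, with counting intervals that left out 0 in each. Among the genes measured they were the 2 for which such ratios were also at least 2-fold apart. The log2 ratio of selected to other cancer cells was 0.75 for *Col1a1* and 0.83 for *Col1a2* in *sGC* Ctr, and -0.38 and -0.75 in *sGC* ΔPC, so that *sGC* ΔPC minus *sGC* Ctr was -1.13 and -1.58. This difference was not tested, since each condition had 1 library. In *sGC* Ctr 7 selected cells held 66.1% of the *Col1a1* UMIs and 89.8% of the *Col1a2* UMIs, and in *sGC* ΔPC 8 selected cells held 48.3% and 64.6%. Cells with at least 100 CPM of both genes together were 5.33% of selected and 1.80% of other cells in *sGC* Ctr and 12.6% and 11.01% in *sGC* ΔPC. The opposite signs depended on the choice of cells: over the alternatives *Col1a2* ran from -2.40 to 1.37 in *sGC* Ctr and from -1.93 to 0.60 in *sGC* ΔPC. For the top 5% *Col1a2* had -2.40 and -0.14 and *Col1a1* had -0.73 and 0.28, and without cells at 100 CPM of both genes together *Col1a2* had -0.35 and -0.28 and *Col1a1* had 0.33 and 0.05.

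Among genes named by rule, 3 more had ratios of selected to other cells of opposite sign, with intervals that left out 0 and a smaller gap. *Hspb1*, a small heat shock protein, had 0.64 in *sGC* Ctr and -0.29 in *sGC* ΔPC, a difference of -0.93. *Kank3* had 0.19 and -0.31, a difference of -0.50. *AY036118*, which overlaps ribosomal RNA sequence, had -0.17 and 0.26, a difference of 0.42. Each opposition was lost under at least 1 alternative: in *sGC* ΔPC *Hspb1* turned to 0.76 without *Igfbp4* in the ranking, *Kank3* to 0.07 with the cancer gate at 2000 CPM and *AY036118* to -0.12 at 40000 UMIs or more. These differences were not tested either, and of all 7223 genes 6122 had the same direction in both libraries.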

How the results depend on the processing

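The 77 named ratios that were at least 2-fold were recomputed under the 23 of 27 alternatives that change the cells or the levels, 5 of them chosen after seeing the data: 73 kept their sign in these 23, and 14 also stayed at least 2-fold in them. The G2/M medians of selected to other cells were lower in *sGC* Ctr than in *sGC* ΔPC in 22 of the 23, and were -0.41 and -0.53 in cells with 0 G2/M UMIs after thinning, a choice that takes out G2/M RNA by construction. Counts of genes depended on the setting. They are given below for *sGC* Ctr and *sGC* ΔPC as higher and lower in selected cells, and then for *sGC* ΔPC against *sGC* Ctr within selected cells (main values 40 and 19 higher, 111 and 56 lower, 34 and 2 between libraries). The causes were not tested, except that the level filters and the 1.5-fold rule change which genes are counted. Counts not named stayed within 1.5 times.

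For the top 5% the share ratio was 0.747, 50 genes were higher in *sGC* ΔPC and 59 and 1 differed between libraries. For the top 20% the ratio was 0.954, with 25 higher in *sGC* Ctr, 21 lower in *sGC* ΔPC and 0 lower between libraries. Ranking after thinning to 5000 UMIs gave 22 and 11 higher, 0 lower in *sGC* ΔPC and 1 lower between libraries, and 58.4% of its cells were also selected in the main ranking. Mitochondrial UMIs under 5% gave 21 lower in *sGC* ΔPC and 94 and 6 between libraries, and the immune gate at 100 CPM gave 29 higher in *sGC* ΔPC. Without cells holding *Pdgfra*, *Dpt* or *Pi16* UMIs the share ratio turned to 1.80, *Cx3cr1* turned to 1.64 between libraries, and the counts were 79 higher and 199 lower in *sGC* Ctr, 32 lower in *sGC* ΔPC and 163 and 20 between libraries. Without *Igfbp6* in the ranking the share ratio was 0.985. Without *Clu* 31 were higher in *sGC* ΔPC and 21 and 1 differed between libraries. Without *Igfbp4* 14 and 6 were higher, 21 were lower in *sGC* ΔPC and 22 and 1 differed between libraries. Of the 18 genes higher in both libraries 3 stayed at least 2-fold higher. Of the 11 that are not ranking genes and did not pass through the selected cells alone, 1 did. The mean of CPM over cells gave 24 lower in *sGC* ΔPC and 80 higher between libraries, and levels from thinned cells gave 27 lower in *sGC* ΔPC and 94 and 8 between libraries. At 50 CPM or more the counts were 20 and 10 higher, 16 and 8 lower, and 8 and 0 between libraries. At 1 CPM or more they were 125 and 57 higher, 297 and 170 lower, and 202 and 24 between libraries. At 1.5-fold they were 175 and 113 higher, 265 and 170 lower, and 141 and 10 between libraries. In cells with 0 G2/M UMIs after thinning 43 were higher and 10 lower in *sGC* ΔPC, 8 were lower in *sGC* Ctr and 4 were lower between libraries, and in *sGC* ΔPC the ratios of *Hist1h3c*, *Tpx2* and *Aspm* turned to 0.92, 0.27 and 1.17. At 40000 UMIs or more the share ratio was 0.684, 32 were higher in *sGC* ΔPC and 17 were higher between libraries.

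The top 10% within each library gives no share ratio by construction, and alternatives that change only levels or filters leave it as it was. No paired analysis was possible because each condition had 1 library. Depth limits the sparse genes most: in *sGC* ΔPC the selected cells held 230 *Cmbl* and 455 *Scara5* UMIs in all. The 2-fold counts have no replicate error.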
